A study of Mus musculus with 9 samples.

Results

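The selenoprotein genes followed here in mouse embryonic stem (ES) cells were Gpx1, Gpx4, Txnrd1, Txnrd2, Selenow, Selenoh, Selenok, Selenot, Msrb1 and Sephs2. They are 10 of the 15526 genes of the deposited table and were found there by symbol. The set was chosen by the lower Gpx1 level in the knockout lines, so the Gpx1 differences are described below without a test. Gpx1 was the lead, and the other 9 genes are its relatives. All 10 passed the filter on low values, a mean of at least 10 over the 9 libraries. The groups were KO1 and KO2, lines edited to remove Kif2a, and the unedited WT cells. Each group had 3 poly-A RNA libraries, all cells were of a 129 background, and none were treated. Kif2a encodes a kinesin-13 motor that depolymerises microtubule ends.

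A selenoprotein carries selenocysteine, the selenium-containing relative of cysteine. Its codon is UGA, which elsewhere ends translation, and a hairpin in the 3' end of the mRNA, the SECIS element, tells the ribosome to read it as selenocysteine. When selenium runs short, UGA is read as a stop more often, and mRNAs with an exon junction far enough behind that UGA can then be taken for faulty and destroyed by nonsense-mediated decay. In rodents and cultured cells the loss follows an order known as the selenium hierarchy. The mRNAs of Gpx1, Selenow and Selenoh are among the first to fall, and those of Gpx4 and Txnrd1 are largely spared.

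The selenocysteine codons of 3 genes from the sensitive end, 2 from the spared end and Selenot are shown here with the bases around them, because they are the feature that the genes share. Capitals mark the codon, bases run 5' to 3' in the spliced transcript, and the sequences come from GENCODE M21 on GRCm38. The codon lies at chr9:108339451-108339453 (plus strand) in Gpx1, at chr7:15920464-15920466 (minus strand) in Selenow and at chr2:84670381-84670383 (minus strand) in Selenoh. It lies at chr3:58585238-58585240 in Selenot, at chr10:80054737-80054739 in Gpx4 and at chr10:82896037-82896039 in Txnrd1, all on the plus strand.
Gpx1: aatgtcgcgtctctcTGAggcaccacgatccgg
Selenow: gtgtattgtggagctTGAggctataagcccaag
Selenoh: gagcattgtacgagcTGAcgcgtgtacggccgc
Selenot: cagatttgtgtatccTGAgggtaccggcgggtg
Gpx4: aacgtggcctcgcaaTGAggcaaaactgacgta
Txnrd1: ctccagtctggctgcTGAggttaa
In Txnrd1 the codon is number 498 of 499 coding codons, and only the final codon lies between it and the true stop. In the others it is early: number 47 of 201 in Gpx1, 13 of 88 in Selenow, 38 of 116 in Selenoh, 49 of 195 in Selenot and 73 of 197 in Gpx4.

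Levels are the authors' normalised read counts, mean ± SD of 3 libraries, and changes are log2 fold changes ± SE of that value plus 1. A gene was called at an adjusted p under 0.05 in a limma fit of 10238 genes, with Benjamini-Hochberg adjustment over all of them. The libraries held 14960295 to 18814858 reads recovered from the table. Whether replicate libraries came from separate cultures is not stated, and each knockout line stands for a single edited line. The p-values therefore cover only the spread between these samples, which may be technical. Kif2a stood at 0.886, 1.16 and 0.957 in KO1 and 1.06, 0.710 and 1.75 in KO2, against 109, 121 and 113 in WT, as the labels say. The 5 ES cell markers Pou5f1, Nanog, Sox2, Zfp42 and Esrrb were high in every library, with Pou5f1 between 2249 and 2438. They were not all level between the groups. Zfp42 was called lower in KO2 against WT (-0.17 ± 0.04, limma adjusted p = 5.1e-04). It stood at 1182 ± 21.5 in KO2 and 1270 ± 27.9 in KO1, against 1330 ± 15.8 in WT, with no overlap between groups. Sox2 was called higher in KO2 against KO1 (0.26 ± 0.07, limma adjusted p = 0.0427) and not against WT. Pou5f1, Nanog and Esrrb were not called in any comparison. The fibroblast markers Col1a1, Col1a2 and Thy1 summed to 12.7 to 13.9 in KO1, 13.9 to 17.0 in KO2 and 12.5 to 13.8 in WT, and the fourth, Acta2, was not analysed here. The neuronal genes Nefm and Tubb3 summed to 108 to 118 in KO1 and 81.1 to 88.4 in KO2, against 131 to 135 in WT. That order is also the order of Gpx1, and the part of these genes in the selenoprotein results was not tested. In bulk RNA, fewer cells of a type and less RNA per cell cannot be told apart.

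The glutathione peroxidases came apart. Gpx1, the cytosolic enzyme that clears hydrogen peroxide with glutathione, was lower in both knockout lines and lowest in KO2. Gpx4, which reduces lipid peroxides within membranes and is the main guard against ferroptosis, was higher. Gpx1 is ENSMUSG00000063856 on chromosome 9, 108338903 to 108340343 on the plus strand. It had normalised read counts of 361, 355 and 393 in KO1 and of 297, 293 and 272 in KO2, against 434, 463 and 456 in WT. The 3 groups did not overlap at any point, so every KO2 library lay under every KO1 library and every KO1 library under every WT library. The KO1 mean was 81.9% of WT and the KO2 mean 63.7% of WT. The log2 differences were -0.29 ± 0.05 for KO1 minus WT, -0.65 ± 0.05 for KO2 minus WT and -0.36 ± 0.05 for KO2 minus KO1. Each library held 2479 to 4195 Gpx1 reads, so counting error was small beside these gaps.

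Gpx4 had 481, 485 and 487 in KO1 and 512, 516 and 472 in KO2, against 439, 427 and 444 in WT. All 6 knockout libraries lay above all WT libraries, and the KO1 and KO2 libraries overlapped. In KO2 Gpx4 rose by 0.19 ± 0.04 on the log2 scale (limma adjusted p = 6.4e-04). In KO1 the difference was 0.15 ± 0.04 and missed the threshold (limma adjusted p = 0.0629). It was called in only 2 of 18 other settings, and the adjusted p ran up to 0.246 among the 18. These were the fit without the KO2 libraries (limma adjusted p = 0.0333) and that without KO2 replicate 3 (limma adjusted p = 0.0216). Both dropped only KO2 libraries, so the KO1 difference itself was unchanged. The lines did not differ detectably from each other in Gpx4 (0.04 ± 0.04, limma adjusted p = 0.569). GENCODE annotates processed pseudogenes of Gpx4, which could share reads with it.

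**Figure D1:**
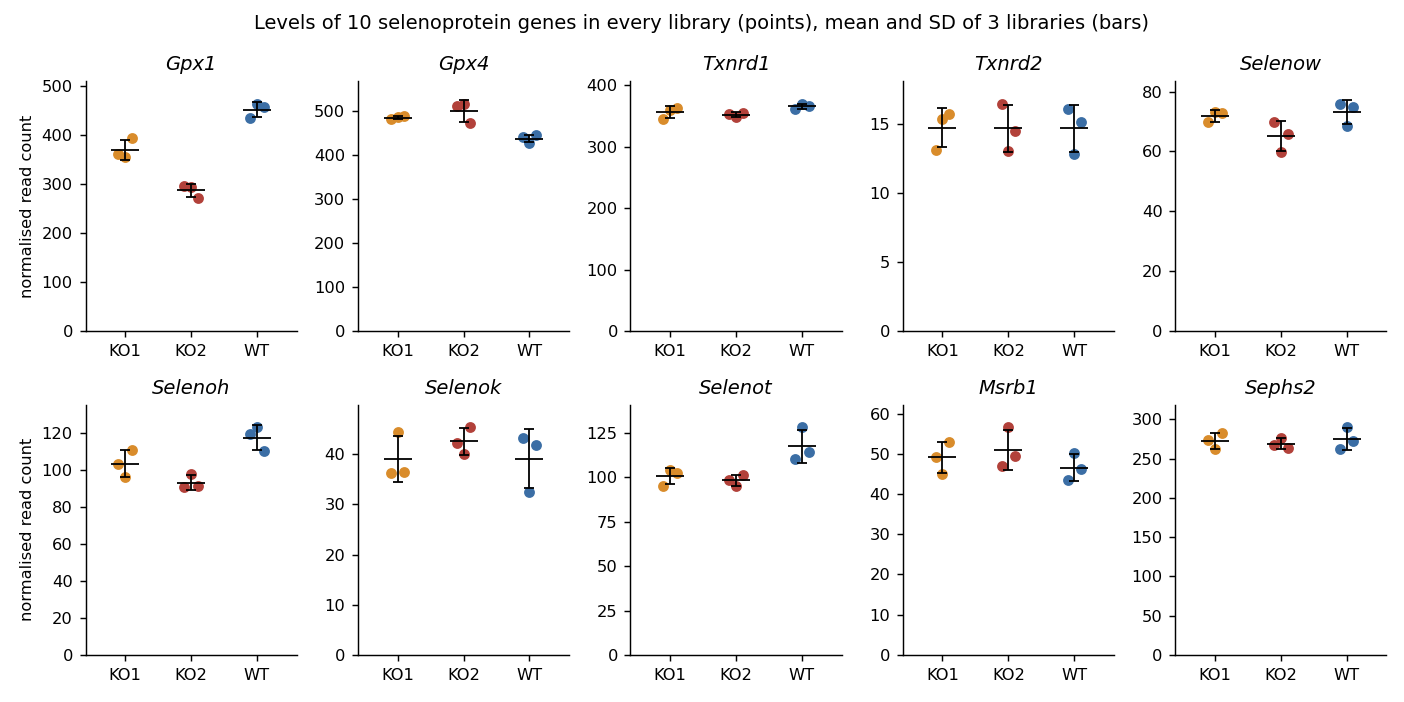
Normalised read counts (y axis, from 0) of the 10 selenoprotein genes in KO1, KO2 and WT, with 1 point per library, the mean and the SD. Gpx1 shows 3 separate steps with KO2 lowest, Gpx4 has both knockout lines above WT, and Selenot has both below WT.

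The thioredoxin reductases were not called in either line. Txnrd1, the cytosolic enzyme that keeps thioredoxin reduced, had 346, 360 and 364 in KO1 and 353, 348 and 356 in KO2, against 361, 370 and 366 in WT. The KO2 libraries all lay just under WT, but the difference of -0.05 ± 0.04 was not called (limma adjusted p = 0.405), nor was that of -0.04 ± 0.04 in KO1 (limma adjusted p = 0.803). Txnrd2, its mitochondrial counterpart, was the least abundant of the 10 genes, at 14.7 ± 1.41 in KO1 and 14.6 ± 1.71 in KO2, against 14.7 ± 1.68 in WT. Its 110 to 164 reads per library gave an SE of 0.14. A call needs a change well beyond its SE, so Txnrd2 changes larger than 0.14 could also be missed at this depth.

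Among the small redox proteins, Selenoh and Selenot fell in KO2 and were not called in KO1, and Selenow was called in neither line. Selenoh is a thioredoxin-fold protein of the nucleolus. It had 103, 96.5 and 111 in KO1 and 90.8, 97.9 and 91.4 in KO2, against 120, 123 and 110 in WT. The KO2 libraries lay under WT with no overlap, and Selenoh fell by 0.33 ± 0.06 in KO2 (limma adjusted p = 1.8e-04). In KO1, whose highest library reached the lowest WT library, the difference was -0.18 ± 0.06 (limma adjusted p = 0.173). The KO2 against KO1 difference was -0.15 ± 0.06 (limma adjusted p = 0.148). GENCODE places Gm28635 over Selenoh on the same strand, so the authors' counting could have split reads between the 2. Gm28635 was not called against WT, at 645 ± 9.98 in KO1 and 591 ± 4.59 in KO2, against 598 ± 15.9 in WT. It was called lower in KO2 against KO1 (-0.13 ± 0.04, limma adjusted p = 0.0303), and its KO1 libraries all lay above WT.

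Selenot, a thioredoxin-like protein of the endoplasmic reticulum membrane, had 95.3, 104 and 103 in KO1 and 98.2, 95.2 and 101 in KO2, against 110, 128 and 114 in WT. Both knockout lines lay under WT with no overlap, and their libraries overlapped each other (KO2 against KO1 -0.03 ± 0.06, limma adjusted p = 0.8). Selenot fell by 0.25 ± 0.06 in KO2 (limma adjusted p = 0.00348). Leaving out WT replicate 2, the highest library, ended that call (-0.19, limma adjusted p = 0.0512). The KO1 difference of -0.22 ± 0.06 was not called (limma adjusted p = 0.0811). It was called in 5 of 18 other settings, among them edgeR (adjusted p = 0.0386) and DESeq2 (adjusted p = 0.0429) on the recovered reads. Selenot and Selenok also have annotated processed pseudogenes.

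Selenow, a small thioredoxin-fold protein best known from muscle, had 69.7, 73.1 and 72.8 in KO1 and 69.7, 59.9 and 65.8 in KO2, against 75.9, 68.6 and 74.7 in WT. The groups overlapped in both comparisons. The differences were -0.02 ± 0.07 in KO1 (limma adjusted p = 0.946) and -0.17 ± 0.07 in KO2 (limma adjusted p = 0.108), and none of the 18 other settings called either. Besides Gpx1, then, Selenoh was called lower in KO2 at the sensitive end of the hierarchy, and Selenow was not called.

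Msrb1 and Sephs2 did not pass the test, nor did Selenok. Msrb1 repairs oxidised methionine, Selenok is an endoplasmic reticulum membrane protein that takes part in protein palmitoylation, and Sephs2 makes the selenophosphate from which selenocysteine is built. Msrb1 stood at 49.1 ± 3.94 in KO1 and 50.9 ± 5.01 in KO2, against 46.6 ± 3.34 in WT. Selenok stood at 39.0 ± 4.67 in KO1 and 42.5 ± 2.68 in KO2, against 39.1 ± 5.83 in WT. Sephs2, itself a selenoprotein, stood at 273 ± 10.3 in KO1 and 269 ± 6.84 in KO2, against 275 ± 13.9 in WT. In each of these genes the groups overlapped.

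Counted together, the 9 genes besides Gpx1 gave 1 higher gene (Gpx4) and 2 lower genes (Selenoh and Selenot) in KO2 against WT. Of all genes tested in that comparison 18.5% were called, 11.0% higher and 7.51% lower. The median of the 9 was -0.03, beside 0.02 over all genes. In KO1 against WT limma called 0 of the 9, where 3 had an unadjusted p under 0.05 and edgeR and DESeq2 each called 1. Over all 10238 genes limma called 1.06% there, 0.830% higher and 0.234% lower. edgeR called 117 of them and DESeq2 107, and 1304 had an unadjusted limma p under 0.05. In KO2 against KO1 limma, edgeR and DESeq2 called 0 of the 9. Of all genes limma called 9.92% there (4.71% higher and 5.22% lower), edgeR called 1075 and DESeq2 979. An unadjusted limma p under 0.05 was reached by 1 of the 9 and by 2494 of the 10238 genes. The split of all calls by direction moved with the scaling: 85 higher and 24 lower in KO1 became 62 and 42 under median-ratio scaling, and 1123 and 769 in KO2 became 895 and 1023. The members' calls in KO2 had the same directions under each scaling tried.

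Overlap between the libraries was counted as well. Among the same 9 genes, Gpx4 alone had all 6 knockout libraries above WT and Selenot alone had all 6 below, where 6.37% of all genes lay above and 2.70% below. In KO1 against WT the same genes, Gpx4 above and Selenot below, were the ones without overlap, beside 13.0% and 5.20% of all genes. In KO2 against WT, 1 of the 9 lay wholly above and 3 wholly below (Selenoh, Selenot and Txnrd1), beside 18.7% and 13.5%. In KO2 against KO1 none of the 9 was free of overlap, beside 12.7% of all genes above and 15.1% below. Counts of 0 to 3 among 9 genes are too small to be set apart from these shares.

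**Figure D2:**
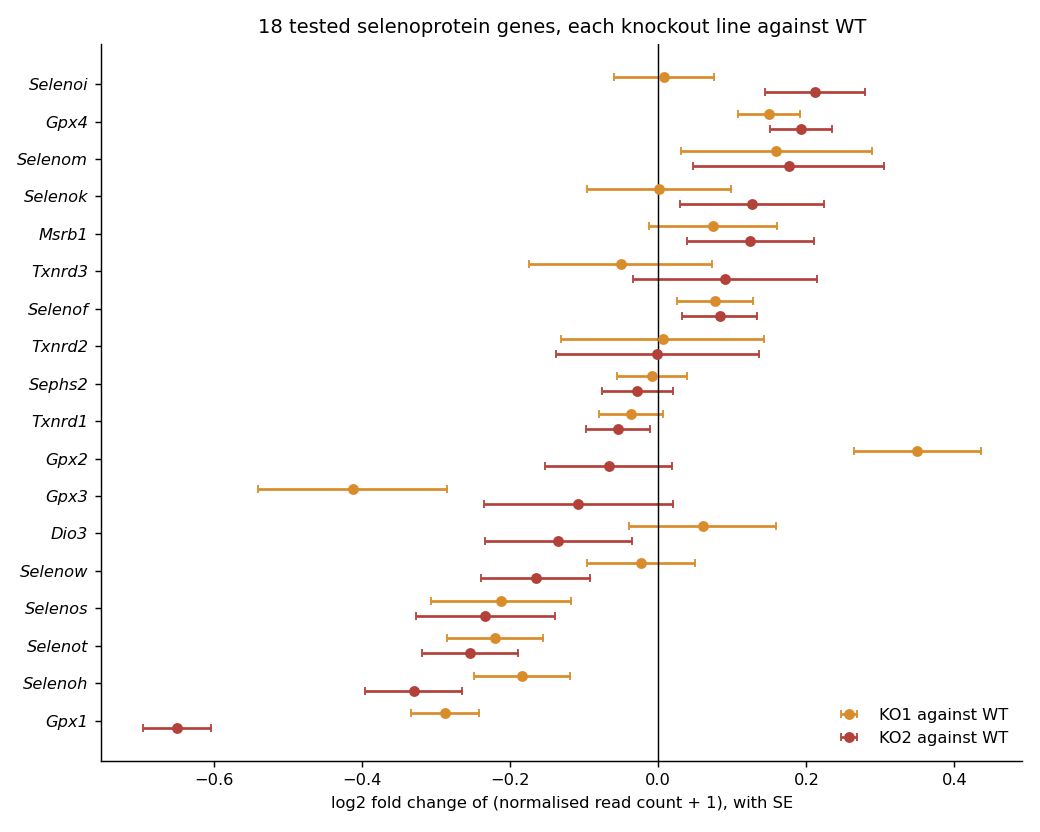
Log2 fold changes (x axis, with SE) of the 18 tested selenoprotein genes in KO1 against WT and KO2 against WT, ordered by the KO2 value. Gpx1 lies lowest in KO2 at -0.65, Selenoh and Selenot follow among the called genes, and Gpx4 and Selenoi lie at the upper end.

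The sum over the 10 genes was 1863 ± 48.0 normalised read counts in KO1 and 1773 ± 36.9 in KO2, against 1937 ± 29.9 in WT. Without Gpx1 it was 1493 ± 29.0 in KO1 and 1486 ± 23.9 in KO2, against 1486 ± 15.5 in WT. The sum without Gpx1 differed between the groups by less than the SD of the KO1 libraries. Without Gpx1 and Gpx4 it was 1008 ± 26.3 in KO1 and 986 ± 1.55 in KO2, against 1049 ± 22.8 in WT, with the KO2 libraries all under WT and the KO1 libraries overlapping it. Per kilobase of the annotated transcript, Gpx1 came second to Gpx4 in every group. Gpx1 averaged 345 in KO1 and 268 in KO2, against 421 in WT, and Gpx4 averaged 505 in KO1 and 521 in KO2, against 456 in WT. Next in KO1 and WT came Selenoh, at 132 in KO1 and 119 in KO2, against 150 in WT per kilobase. In KO2 Sephs2 came before Selenoh, at 124 per kilobase.

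Set against each other within a library, the sensitive genes were lower relative to Gpx4 in every knockout library. The log2 ratio of Gpx1 to Gpx4, taken relative to its WT mean, was -0.46, -0.50 and -0.36 in KO1 and -0.83, -0.86 and -0.84 in KO2, against -0.06, 0.07 and -0.01 in WT. Selenoh over Gpx4 averaged -0.34 ± 0.10 in KO1 and -0.53 ± 0.07 in KO2, with an SD of 0.11 in WT and no overlap. Selenow over Gpx4 averaged -0.17 ± 0.03 in KO1 and -0.36 ± 0.14 in KO2, with an SD of 0.05 in WT and no overlap. The higher Gpx4 level enters each of these ratios, since Gpx4 is the divisor in all 3.

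Relative to Txnrd1, the sensitive genes were not alike. Gpx1 over Txnrd1 averaged -0.25 ± 0.07 in KO1 and -0.60 ± 0.08 in KO2, with an SD of 0.03 in WT, and the groups stayed apart. Selenoh over Txnrd1 averaged -0.15 ± 0.10 in KO1 and -0.28 ± 0.08 in KO2, and its KO1 libraries overlapped WT while its KO2 libraries did not. Selenow over Txnrd1 averaged 0.01 ± 0.01 in KO1 and -0.11 ± 0.10 in KO2, with an SD of 0.09 in WT, and overlapped WT in both lines. These ratios are descriptions without a test, because Gpx1 was chosen for its level.

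**Figure D3:**
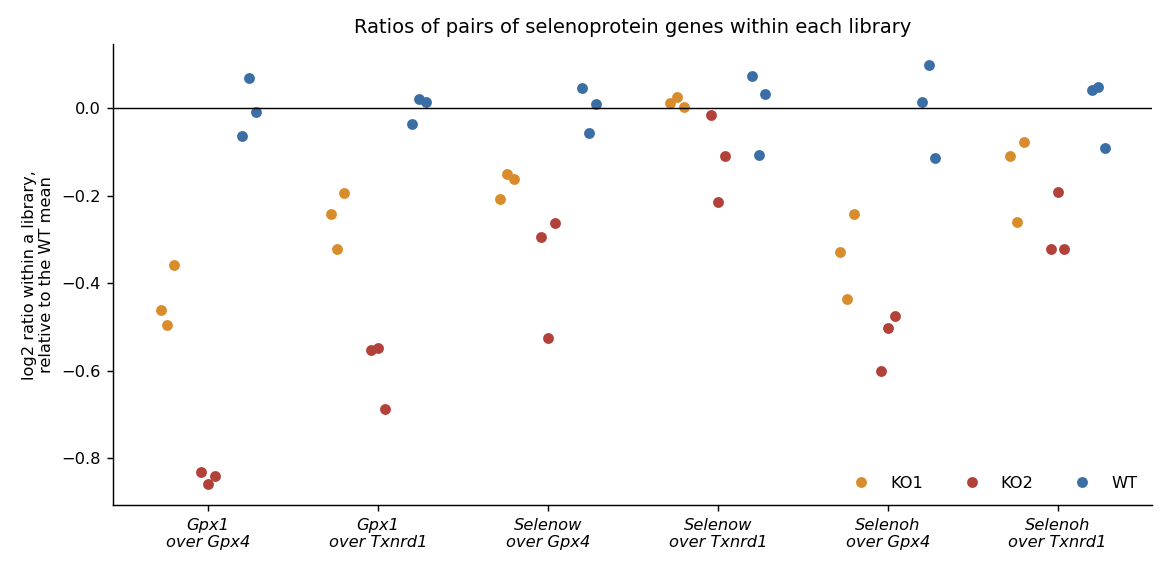
Log2 ratios of the sensitive genes Gpx1, Selenow and Selenoh to the spared genes Gpx4 and Txnrd1 within each library (y axis, relative to the WT mean of the ratio), 1 point per library in KO1, KO2 and WT. All knockout points lie under WT for the ratios to Gpx4, while Selenow over Txnrd1 overlaps WT.

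A further 14 mouse selenoprotein genes were looked up, and 8 of them could be tested. Selenon, Selenoo and Selenop were under the filter, with Selenop at 0 to 11 reads per library, and Dio1, Dio2 and Selenov were not analysed here. Gpx2, a glutathione peroxidase best known from the gut lining, set the lines apart. It had 51.4, 51.6 and 51.5 in KO1 and 37.5, 36.4 and 41.2 in KO2, against 41.4, 38.3 and 41.0 in WT. Gpx2 rose by 0.35 ± 0.09 in KO1 (limma adjusted p = 0.0202), although that call was lost without any 1 of the KO1 libraries and without WT replicate 2 or 3 (limma adjusted p of 0.064 to 0.112). In KO2 it was not called against WT (-0.07 ± 0.09, limma adjusted p = 0.634). The difference between the lines, -0.42 ± 0.09 in KO2 against KO1, was called (limma adjusted p = 6.5e-04). Gpx2 overlaps Fntb on the opposite strand, and whether reads were counted by strand is not given in the sources used here. Fntb was lower in KO2 against WT (-0.13 ± 0.05, limma adjusted p = 0.0344) and was not called between the lines.

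Selenoi, an ethanolamine phosphotransferase that makes phosphatidylethanolamine, had 76.1, 79.7 and 79.9 in KO1 and 88.9, 89.5 and 93.4 in KO2, against 75.1, 82.1 and 77.3 in WT. It rose by 0.21 ± 0.07 in KO2 against WT (limma adjusted p = 0.0211) and by 0.20 ± 0.07 in KO2 against KO1 (limma adjusted p = 0.0425). The first call was lost without KO2 replicate 3, WT replicate 1 or WT replicate 3 (limma adjusted p of 0.0646 to 0.0929). The second was lost in 8 of 18 other settings, at limma adjusted p-values of up to 0.147, among them each setting that left out a KO1 or a KO2 library.

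The other 6 tested selenoproteins were not called in any comparison. Gpx3, the secreted peroxidase of blood plasma, was at 16.4 ± 1.60 in KO1 and 20.5 ± 3.20 in KO2, against 22.2 ± 3.40 in WT. The Gpx3 difference was -0.41 ± 0.13 in KO1 (limma adjusted p = 0.11) and -0.11 ± 0.13 in KO2 (limma adjusted p = 0.602). The KO1 libraries of Gpx3 all lay under WT, and its KO2 libraries overlapped WT. Selenos, which helps to remove misfolded proteins from the endoplasmic reticulum, was at 35.3 ± 1.45 in KO1 and 34.8 ± 3.23 in KO2, against 41.1 ± 3.91 in WT. Its KO1 libraries likewise all lay under WT, and its KO2 libraries overlapped WT. Its KO2 difference of -0.23 ± 0.09 just missed (limma adjusted p = 0.0754) and was called in 4 of 18 other settings. Selenof, a protein of the endoplasmic reticulum folding machinery, had a difference of 0.08 ± 0.05 in each line, with the libraries of both lines above WT, and was not called (limma adjusted p = 0.585 in KO1 and 0.272 in KO2). Selenom, Txnrd3 and Dio3, the enzyme that inactivates thyroid hormone, overlapped WT in both lines. Of all genes, 5.20% lay wholly under WT in KO1, and 6.37% lay wholly above WT in both lines.

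The place of the selenocysteine codon in the spliced transcript was set beside these changes. The count is in bases from the codon to the last exon junction, since a stop more than about 55 bases before that junction is the usual signal for nonsense-mediated decay. The distance was 105 bases in Gpx1, 136 in Selenoh, 243 in Selenow, 342 in Gpx4 and 470 in Selenot. It was 34 in Msrb1 and 5 in Selenok. In Txnrd1 and Txnrd2 the codon comes after the last junction, by 63 and 124 bases, and Sephs2 has a single exon.

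Of the 18 tested selenoproteins, 9 had the codon at least 55 bases before the last junction. Leaving out Gpx1, which chose the set, 8 remain, and in KO2 against WT these comprised 2 lower genes (Selenoh and Selenot) and 1 higher gene (Gpx4). The other 9 comprised 0 lower genes and 1 higher gene (Selenoi), where 7.51% of all genes were called lower and 11.0% higher. The KO2 medians were -0.09 for the 8 and -0.00 for the 9, and such counts are too small to be set apart from each other. Gpx4, with a codon 342 bases before the junction, moved in the opposite direction to Gpx1, Selenoh and Selenot. This grouping was made after the values had been seen, so it is given as a description only.

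**Figure D4:**
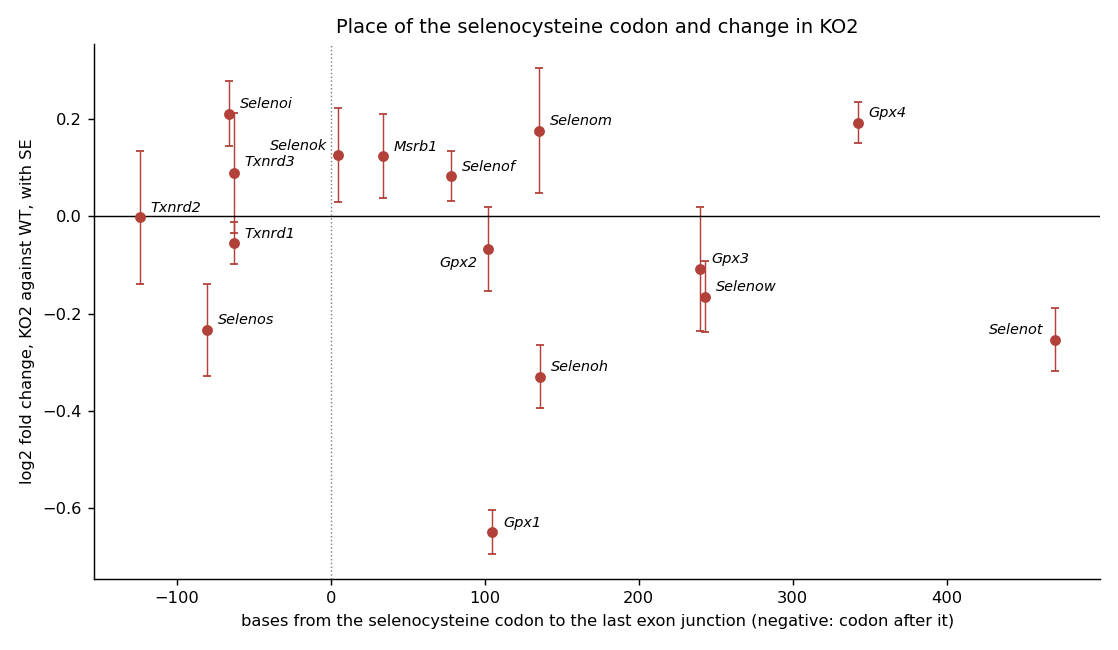
Distance from the selenocysteine codon to the last exon junction in bases (x axis, negative where the codon comes after it) and the log2 fold change in KO2 against WT with SE (y axis) for the tested selenoprotein genes with more than 1 exon. Gpx1, Selenoh and Selenot lie right of 0 and low, and Gpx4 lies right of 0 and high.

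The list for making and inserting selenocysteine, which also holds the uptake receptor Lrp8, had 14 genes tested. Of these, 2 (Lrp8 among them) rose and 1 fell in KO2 against WT, with a median of 0.03. Beside this and the lists that follow stand the shares of all genes in KO2 against WT, 11.0% called higher and 7.51% lower, or 18.5% in all. Lrp8, a receptor that takes up selenoprotein P, rose by 0.54 ± 0.15 (limma adjusted p = 0.00581). It stood low, at 11.6, 15.5 and 11.9 in KO1 and 16.2, 17.6 and 13.6 in KO2, against 11.4, 9.42 and 10.7 in WT. Sars, the synthetase that loads serine onto the selenocysteine tRNA as the first step, rose by 0.16 ± 0.04 (limma adjusted p = 0.00444). Ncl, nucleolin, an abundant nucleolar protein that also binds SECIS elements, fell by 0.16 ± 0.04 (limma adjusted p = 7.0e-04). The dedicated factors Secisbp2, Eefsec and Sepsecs were not called: Secisbp2 was at 58.7 ± 6.74 in KO1 and 56.7 ± 5.13 in KO2, against 56.0 ± 2.80 in WT.

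Of 14 tested genes of nonsense-mediated decay, 2 fell and 0 rose in KO2 against WT, beside 7.51% of all genes called lower and 11.0% higher. Counts this small cannot be set apart from those shares. Upf3a fell by 0.22 ± 0.07 (limma adjusted p = 0.0152) and Smg5, which helps to recycle the central factor Upf1, fell by 0.17 ± 0.04 (limma adjusted p = 0.0038). Both calls were lost when a single WT library was left out, Upf3a without WT replicate 1 or 3 and Smg5 without WT replicate 3. In KO2 against KO1, 2 of the 14 fell and 0 rose, beside 5.22% of all genes called lower and 4.71% higher there. That count is also too small to be set apart from the shares. Smg5 and Smg8 were the genes that fell, by 0.14 ± 0.04 (limma adjusted p = 0.027) and 0.20 ± 0.06 (limma adjusted p = 0.0309). These calls were lost in 4 of 18 other settings for Smg5 (adjusted p of up to 0.13) and in 6 of 18 for Smg8 (adjusted p of up to 0.107). edgeR and DESeq2 each called 4 genes of this list in KO2 against WT, beside 1882 and 1699 of all 10238 genes.

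The partners of the glutathione and thioredoxin systems that contain no selenium gave 1 higher and 3 lower of 23 genes in KO2 against WT, near the 18.5% of all genes. Txnip, which binds and inhibits thioredoxin, stood at 235, 226 and 220 in KO1 and 297, 300 and 318 in KO2, against 215, 200 and 205 in WT. It rose by 0.56 ± 0.05 in KO2 (limma adjusted p = 5.6e-13). Msrb2, the mitochondrial methionine sulfoxide reductase, which has cysteine in place of selenocysteine, fell by 0.65 ± 0.14 (limma adjusted p = 4.8e-04). Its level was low, at 11.0 ± 1.12 in KO2, against 17.8 ± 2.65 in WT. Prdx6, a peroxiredoxin that uses glutathione, fell by 0.16 ± 0.05 (limma adjusted p = 0.0137), a result lost without KO2 replicate 1 (adjusted p = 0.0808) or WT replicate 3 (adjusted p = 0.0904). Gclc, of the first step of glutathione synthesis, had a KO2 difference of -0.18 ± 0.07 (limma adjusted p = 0.0453), a call lost in 11 of 18 other settings.

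NRF2, the transcription factor encoded by Nfe2l2, drives many antioxidant genes, Txnrd1 among them. Of 14 tested genes of its pathway, 5 rose and 4 fell in KO2 against WT, beside 11.0% and 7.51% of all genes. Ftl1, the light chain of the iron store ferritin, rose by 0.26 ± 0.04 (limma adjusted p = 7.3e-07), Me1 by 0.26 ± 0.05 (limma adjusted p = 2.6e-04), Blvrb by 0.35 ± 0.07 (limma adjusted p = 4.3e-04) and Slc3a2 by 0.16 ± 0.04 (limma adjusted p = 0.00446). Nqo1, a quinone reductase often used to read out NRF2, fell by 0.36 ± 0.07 (limma adjusted p = 5.7e-05) to 93.5, 79.5 and 95.4 in KO2, against 112, 113 and 120 in WT. Nfe2l2 itself fell by 0.21 ± 0.05 (limma adjusted p = 0.00436). The list therefore moved in both directions, with a median of 0.05.

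Of 8 tested genes that promote or restrain ferroptosis besides Gpx4, 4 rose and 1 fell in KO2 against WT, beside 11.0% and 7.51% of all genes. Tfrc, the transferrin receptor for iron uptake, fell by 0.29 ± 0.04 (limma adjusted p = 4.0e-06) to 571 ± 33.0 in KO2, against 698 ± 50.1 in WT. Por, an electron donor to cytochrome P450 enzymes, rose by 0.24 ± 0.06 (limma adjusted p = 0.00331), and Lpcat3, which loads polyunsaturated chains into phospholipids, by 0.21 ± 0.05 (limma adjusted p = 0.00197). Acsl4, which activates those chains, and Dhodh were called at limma adjusted p-values of 0.0467 and 0.0494, with differences of 0.24 ± 0.09 and 0.17 ± 0.06, and each call was lost in 15 of 18 other settings.

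In KO1 against WT limma called 0 genes in each of these 5 lists, where 1.06% of all genes were called. At an unadjusted p under 0.05 there were 2 in selenocysteine synthesis and insertion, 3 in nonsense-mediated decay, 3 in the glutathione and thioredoxin partners, 2 in the NRF2 pathway and 2 in ferroptosis. Of all 10238 genes tested, 1304 had an unadjusted limma p under 0.05 there. edgeR called 1 gene of selenocysteine synthesis and insertion, and edgeR and DESeq2 each called 1 of the glutathione and thioredoxin partners. Over all 10238 genes edgeR called 117 and DESeq2 107.

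**Figure D5:**
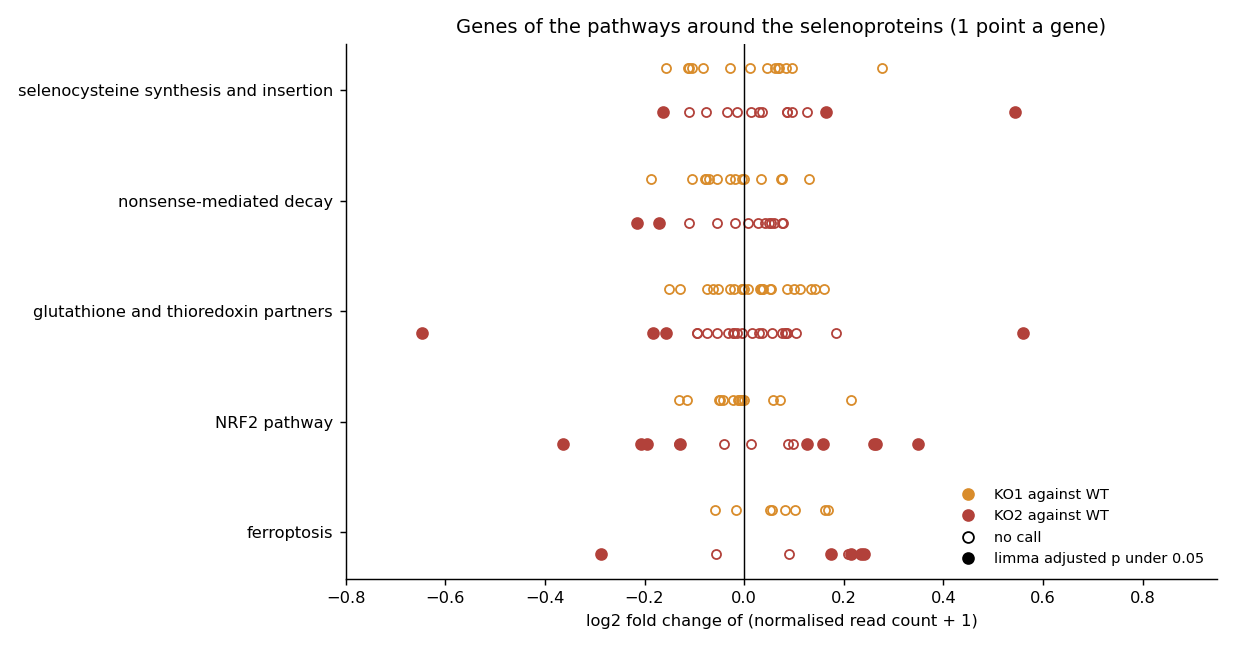
Log2 fold changes (x axis) of the tested genes in 5 pathways around the selenoproteins, 1 point per gene, for KO1 against WT and KO2 against WT; filled points passed a limma adjusted p under 0.05. Filled points occur for KO2 and not for KO1, and they lie on both sides of 0 in 4 of the 5 pathways.

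Among the 5 tested neighbours of Gpx1 on chromosome 9, limma called 1 higher and 0 lower in KO2 against WT, beside 11.0% and 7.51% of all genes. Counts among 5 genes are too small to be set apart from those shares. Dag1 rose by 0.23 ± 0.04 in KO2 (limma adjusted p = 4.7e-05), and Rhoa (0.07 ± 0.04), Usp4 (-0.04 ± 0.05), Amt (0.05 ± 0.04) and Nicn1 (0.03 ± 0.09) were not called. In KO1 limma, edgeR and DESeq2 called 0 of the 5, and 0 had an unadjusted p under 0.05. Of all 10238 genes limma called 109 there, edgeR 117 and DESeq2 107, and 1304 had an unadjusted limma p under 0.05.

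Across the 9 libraries, the genes whose levels ran most closely with Gpx1 were Vim (Pearson r = 0.991), Ddx39b (0.983), Gask1b (0.981), Ppp1r10 (0.978) and Srsf6 (0.976). The libraries form 3 groups, so these values describe the shared order of the groups, and 106 genes had r above 0.9. Vim, the intermediate filament vimentin, stood at 383, 362 and 402 in KO1 and 310, 314 and 305 in KO2, against 429, 438 and 437 in WT. Its 3 groups did not overlap, as in Gpx1, Ddx39b, Gask1b and Srsf6, while Ppp1r10 overlapped between KO1 and WT. These genes were picked for running with Gpx1, so a shared order of the groups was largely set by that choice. None of the other 9 selenoprotein genes was among these 5 genes. With only 5 places among 10238 tested genes, that would hold for almost any 9, so it says nothing about them.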

How the data were processed

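Poly-A RNA of mouse ES cells was read as paired ends of 50 bases from stranded libraries, per the labels. The tools named in the submitters' processing notes are HISAT2 and DESeq2, with GRCm38 as build; their versions, the annotation and any use of strand in counting are not stated. Each deposited value is a signal for a gene in a library, a read count that the authors had scaled, for 15526 genes. Values of up to 2000 reads were all whole multiples of 1 step per library (tolerance 0.05 reads), which recovered whole reads and depths of 14960295 to 18814858.

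Changes were then tested with limma 3.58.1 (R 4.3.3) on log2(value + 1) for 10238 genes with a mean of at least 10, with a mean per group over 9 libraries, trend and robust moderation, and Benjamini-Hochberg adjustment over all genes tested. edgeR 4.0.16 and DESeq2 1.42.0 on the recovered reads were alternatives. The fit was also run on simulated counts in which a small share of genes changed, in KO2 only. Its outcome is not given here, and no result rests on it. Transcripts and positions came from GENCODE M21 by symbol, and lengths and codons are those of 1 annotated coding transcript a gene. Named besides the selenoproteins are at most 6 called genes per list by adjusted p in KO2 against WT, the fixed neighbours of Gpx1, the 5 genes most like Gpx1, the markers and Kif2a; other genes were named after their values were seen. The members and lists were chosen with earlier results of these data known.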

Additional observations from a re-analysis of the deposited data

Results flagged for a closer look

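Gpx2 and Selenoi are listed because the 2 knockout lines, edited to lose the same gene, differed from each other in a direct test. Of all genes tested 9.92% were called in KO2 against KO1, so 2 such genes among the 8 further selenoproteins tested are not set apart from that share. Gpx2 was at 38.4 ± 2.52 normalised read counts in KO2 and 51.5 ± 0.0963 in KO1, beside 40.2 ± 1.70 in WT, a log2 difference of -0.42 ± 0.09 in KO2 against KO1 (limma adjusted p = 6.5e-04), and the 3 KO2 libraries were all lower than the 3 KO1 libraries. This call held in all 18 other settings. Selenoi was at 90.6 ± 2.47 in KO2 and 78.6 ± 2.16 in KO1, beside 78.2 ± 3.59 in WT, a difference of 0.20 ± 0.07 (limma adjusted p = 0.0425), with all 3 KO2 libraries higher, and the call was lost in 8 of 18 other settings.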

How the results depend on the processing

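No value reversed its sign past the threshold in any of the 18 other settings. Counts over the 10 selenoprotein genes include Gpx1, which chose the set, so its part in them supports nothing. In KO1 against WT the count was 1 (Gpx1 alone) and was 2 under median-ratio scaling, quantile normalization, edgeR, DESeq2 and a fit of only the 2 groups compared. The gene besides Gpx1 was Selenot in the first 4 and Gpx4 in the last. Of all 10238 genes these settings called, in the same order, 104, 103, 117, 107 and 149. Leaving out each library in turn gave 1 to 3 there, with 3 without KO2 replicate 3, 3 to 4 in KO2 against WT, with 3 without WT replicate 2, and 1 throughout, Gpx1 alone, in KO2 against KO1. Over all genes the same step gave 50 to 166 calls in KO1 against WT (109 with all libraries; 54 without KO1 replicate 1, 50 without KO1 replicate 2, 65 without WT replicate 3 and 166 without KO2 replicate 3). It gave 1324 to 1808 in KO2 against WT (1892) and 521 to 1207 in KO2 against KO1 (1016; 521 without KO1 replicate 2 and 618 without KO1 replicate 3). Same-numbered libraries did not deviate together (correlations of -0.129 to 0.027), so the numbers do not pair them. With a replicate block, 89, 1719 and 867 genes were called in KO1 against WT, KO2 against WT and KO2 against KO1, and 1, 4 and 1 of the 10. Other scalings moved the median of all genes by under 0.03 on the log2 scale. For genes with few reads, such as Txnrd2, depth limits what could be seen.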
